A study of Cucurbita pepo with 12 samples.

Results

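The genes described here were found in leaf and in pollen of zucchini and were at or near 0 in its root. They were chosen from a deposited table of 27868 genes as those with at least 5 FPKM in all 4 leaf and all 4 pollen libraries and under 1 FPKM in all 4 root libraries. FPKM counts sequenced fragments per length of transcript and per sequencing depth, so levels can be compared between genes of a library. A comparison between organs also depends on how libraries are scaled. The rule gave 19 genes. Their levels in leaf and pollen against root chose them and are given as a description, without a test.

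The plants were Cucurbita pepo of the cultivar Costata Romanesco, grown for 60 days in potted soil until they flowered. Control plants had no copper added. The other soils received CuO NPs (copper oxide nanoparticles) or CuO bulk (the same oxide as raw material of larger particle size), each at 100 mg/kg of soil, or CuSO4 (copper sulfate pentahydrate) at 320 mg/kg, each about 80 mg/kg of copper. Each of the 12 combinations of organ and treatment is 1 library of messenger RNA, so a difference between treatments within an organ has no replicate check, and the 4 treatments of an organ serve as its replicates where organs are compared.

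Leaf is the photosynthetic organ of the shoot, and pollen is the male gametophyte, a few-celled haploid structure that carries stored transcripts for germination and tube growth. Roots take up copper from soil. Copper is a cofactor of electron carriers in chloroplasts and mitochondria and is harmful in excess. Genes are given by the IDs of the deposited table, which neither it nor the RefSeq gene table pairs with names, so no function is stated for any of them. The labelled organs could not be checked against named marker genes for the same reason, and the part of other flower or leaf cells in the pollen libraries was not tested with markers. In bulk tissue, fewer cells of a type and less RNA per cell cannot be told apart.

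In pollen libraries 10309 to 11569 genes reached 1 FPKM, against 19676 to 20957 in those of leaf and 20550 to 20881 in those of root. The FPKM of all genes summed to 666570 to 698915 in pollen libraries and to 552230 to 563463 in leaf libraries. The spacing of low values gave depths between 0.916 and 1.15 of that of the control library of the same organ. Counting intervals are left out because the number of reads behind a value is unknown.

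A root level near 0 was rare among genes that leaf and pollen share. Of 2956 genes with at least 5 FPKM in all leaf and pollen libraries, 2721 (92.1%) also had at least 5 FPKM in all 4 root libraries. A highest root value of 2 to under 5 FPKM was found for 72 of them, 1 to under 2 FPKM for 17, and under 1 FPKM for the 19 (0.643%). The same limits set for root and pollen against leaf held for 9 genes, and those for root and leaf against pollen for 2563 genes.

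**Figure D1:**
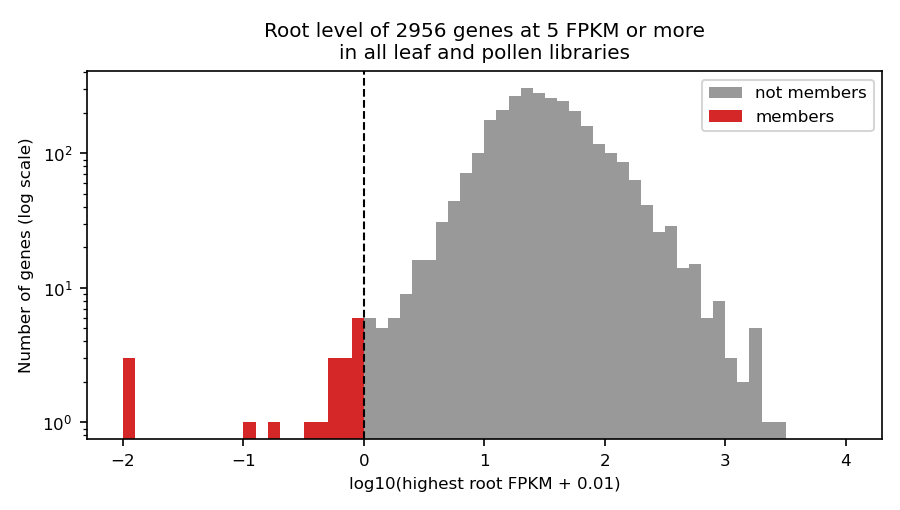
Number of genes (log scale) by highest root level, as log10(highest root FPKM + 0.01), among the 2956 genes with at least 5 FPKM in all leaf and pollen libraries. The 19 chosen genes, in red, lie left of the dashed line at 1 FPKM, in the low tail of the distribution, and 3 of them are listed at 0 in every root library.

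In root, 27 of the 76 values of the 19 genes were listed at 0. Of these genes, 3 were listed at 0 in all 4 root libraries, 8 in 1 to 3 of them and 8 in none. Cp4.1LG07g05400 came nearest the root limit from inside, with 0.964 FPKM under CuO bulk, followed by Cp4.1LG12g06490 with 0.945 FPKM under CuO NPs. The nearest genes outside it were Cp4.1LG17g08220, with a highest root value of 1.005 FPKM, and Cp4.1LG09g11570 with 1.01 FPKM. At the leaf floor, Cp4.1LG00g03540 and Cp4.1LG07g04740 were inside with a lowest leaf value of 5.10 FPKM, and Cp4.1LG11g07260 and Cp4.1LG08g00350 were outside with 4.80 and 2.34 FPKM. At the pollen floor, Cp4.1LG08g03810 and Cp4.1LG05g10930 were inside with 5.03 and 5.42 FPKM, and Cp4.1LG08g10650 and Cp4.1LG06g05080 were outside with 4.43 and 4.13 FPKM.

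Cp4.1LG00g03540 and Cp4.1LG07g04740 had identical values in all 12 libraries, so the 19 genes held 18 distinct profiles. Whether they share reads was not tested, and the level of each is uncertain. The IDs carried 12 of the 21 prefixes of the table (LG00 to LG20), with at most 3 genes under 1 prefix and 2 under LG00. None of the 38 IDs next to a member in the table's numbering was itself a member, and 7 of them (18.4%) were under 1 FPKM in all root libraries, against 20.6% of all genes.

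**Figure D2:**
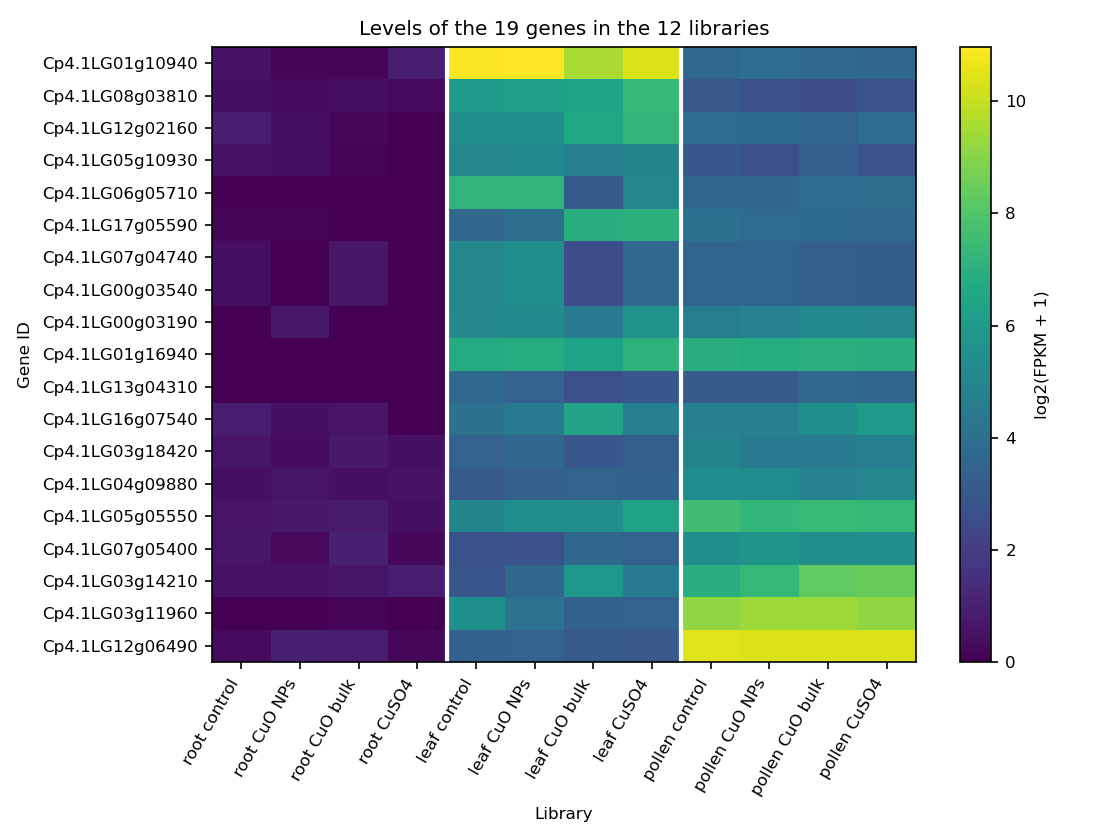
Levels of the 19 genes (rows) in the 12 libraries (columns), as log2(FPKM + 1) by colour. Rows run from the gene with the highest leaf level relative to pollen at the top to that with the highest pollen level relative to leaf at the bottom, and the root block is dark throughout because of the rule.

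The 19 genes had very unequal levels in the organs where they were found. The median of their mean levels was 31.7 FPKM in leaf and 24.9 FPKM in pollen. Their median rank was at percentile 83.1 of the 20833 genes that averaged 1 FPKM or more in leaf, within a range of 41.6 to 99.9, and at percentile 79.5 of 11185 such genes in pollen, within 54.3 to 98.9. Together they took 0.255% to 0.481% of all FPKM in leaf libraries and 0.380% to 0.423% in pollen libraries.

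A single gene made up most of that sum in each leaf library, and another gene was the largest part of it in pollen. Cp4.1LG01g10940 stood in leaf at 1937 FPKM in the control, 2004 FPKM under CuO NPs, 769 FPKM under CuO bulk and 1313 FPKM under CuSO4. In pollen it stood at 12.8, 15.0, 12.6 and 12.2 FPKM in the same order of treatments, and in root at most at 0.916 FPKM. It made up 53.6% to 74.9% of the summed FPKM of the 19 genes in leaf.

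Cp4.1LG12g06490 showed the opposite arrangement. Its pollen values were 1385 FPKM in the control, 1320 FPKM under CuO NPs, 1358 FPKM under CuO bulk and 1353 FPKM under CuSO4, and its leaf values 9.50, 9.87, 7.72 and 7.39 FPKM. It made up 47.1% to 52.2% of the summed FPKM of the 19 genes in pollen. These were also the 2 genes with the highest mean log2 level over leaf and pollen.

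The difference between leaf and pollen was not set by the rule, and it was tested with limma on the 8 leaf and pollen libraries, with treatment as a block, over 22243 genes. Genes were called where the adjusted p was under 0.05 and log2(FPKM + 1) differed by 1 or more, and 7 of the 19 genes were higher in pollen and 4 in leaf. All 7 had every pollen value above every leaf value, all 4 the reverse, and the leaf and pollen values of the other 8 overlapped. Values without overlap and higher in pollen were found for 14.3% of all genes tested and 30.3% of the 2956 genes with the same leaf and pollen floors, and higher in leaf for 71.3% and 37.6%. With treatment as a block, the p-values measure how far the pollen minus leaf difference varies over the 4 treatments. They do not measure the spread between replicates of a treatment. Among all genes tested, 12.9% were higher in pollen and 68.2% higher in leaf. Among the 2956 genes these shares were 22.7% and 27.5%. The median difference, pollen minus leaf on the log2 scale, was 0.14 over the 19 genes, -0.19 over those 2956 and -1.95 over all genes tested. The median over the 19 was -0.09 without the CuO bulk libraries and -0.025 without those of CuSO4, so its sign rests on single treatments.

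The calls depended on how libraries were scaled. With each library shifted to a common median of genes found in all leaf and pollen libraries, 10 of the 19 were higher in pollen and 3 in leaf, beside 20.1% and 43.6% of all genes and 47.6% and 7.41% of the 2956. The median difference became 1.28 over the 19, 0.95 over the 2956 and -0.81 over all genes. Quantile normalization gave 8 and 3, beside 25.4% and 27.1% of all genes and 51.6% and 9.64% of the 2956. Its medians were 0.76 over the 19, 1.12 over the 2956 and -0.18 over all genes, so the order of the 19 and the 2956 turned. Without the CuO bulk libraries, 7 genes were higher in leaf in place of 4, beside 67.2% of all genes and 27.4% of the 2956. The genes added were Cp4.1LG06g05710 and the pair with identical values, Cp4.1LG00g03540 and Cp4.1LG07g04740.

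Among genes higher in pollen, Cp4.1LG12g06490 had the largest difference, with 1354 ± 26.7 FPKM in pollen (SD, n = 4 libraries) against 8.62 ± 1.25 FPKM in leaf. This is a ratio of 157 and a log2 difference of 7.15 (SE 0.17, limma adjusted p = 3.06e-06). Cp4.1LG03g11960 came next, with 575 FPKM in control pollen, 654 FPKM under CuO NPs, 650 FPKM under CuO bulk and 563 FPKM under CuSO4. Its leaf values were 44.0, 17.3, 9.45 and 9.93 FPKM, a log2 difference of 5.12 (SE 0.40, limma adjusted p = 9.36e-05).

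Among genes higher in leaf, Cp4.1LG01g10940 led with 1506 ± 582 FPKM in leaf (SD, n = 4 libraries) against 13.1 ± 1.27 FPKM in pollen. This is a ratio of 115 and a log2 difference, pollen minus leaf, of -6.64 (SE 0.26, limma adjusted p = 1.40e-05). Cp4.1LG08g03810 followed, with 63.8 FPKM in control leaf, 76.8 FPKM under CuO NPs, 80.7 FPKM under CuO bulk and 162 FPKM under CuSO4. Its pollen values were 7.43, 5.35, 5.03 and 6.24 FPKM, close to the floor of the rule, and the log2 difference was -3.70 (SE 0.28, limma adjusted p = 8.01e-05).

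Genes without a call did not all stand at like levels in both organs. The leaf mean was 6.17 times the pollen mean for Cp4.1LG06g05710 and 4.82 times for Cp4.1LG17g05590, where leaf values varied widely. Some others stood at like levels. Cp4.1LG01g16940, singled out after its values were seen, was listed at 0 in all 4 root libraries. It stood in leaf at 108, 109, 81.1 and 137 FPKM and in pollen at 121, 109, 123 and 120 FPKM (control, CuO NPs, CuO bulk, CuSO4). Its log2 difference between pollen and leaf was 0.14 (SE 0.19, limma adjusted p = 0.517), and it became a call of 1.28 after the median shift.

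**Figure D3:**
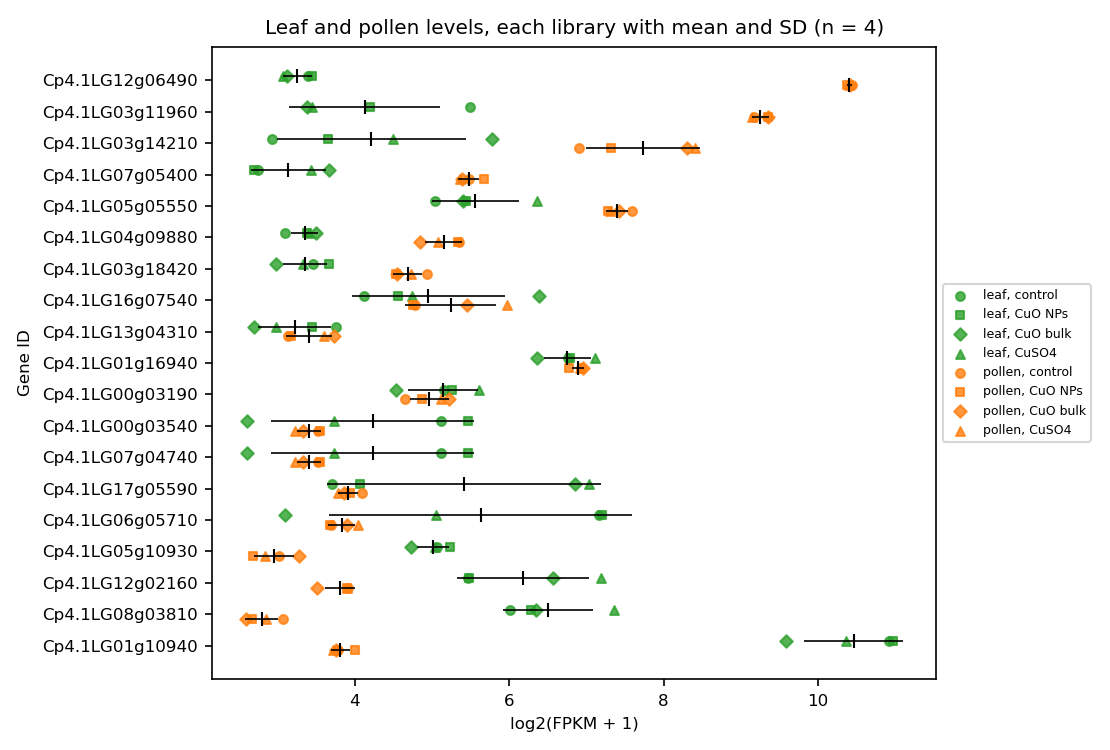
Level of each of the 19 genes as log2(FPKM + 1) in the 4 leaf (green) and 4 pollen (orange) libraries, with the treatment by marker shape and the mean and SD (n = 4 libraries) in black. Leaf values of 17 of the 19 genes are spread more widely than their pollen values, and the groups separate for the 7 genes at the top and for the 4 at the bottom.

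In leaf, the copper materials differed in how far these genes lay from the control library. On the log2(FPKM + 1) scale, 2 of the 19 (10.5%) were higher and 3 (15.8%) lower by at least 2.3 under CuO bulk. Under CuSO4, 1 was higher and 0 lower, and under CuO NPs 0 were higher and 0 lower. The threshold of 2.3 is the submitters' own and is a 4.92-fold difference in FPKM + 1. Of all 20833 leaf genes kept, 4.56% were higher and 3.53% lower under CuO bulk, 2.86% and 3.34% under CuSO4, and 0.101% and 0.125% under CuO NPs. Among the 2956 genes with the same floors, which limit how low a value can be, the shares were 0.846% and 1.52% under CuO bulk, 0.507% and 1.32% under CuSO4, and 0% and 0% under CuO NPs. These are counts of few genes, and 2 of the 3 lower ones are the pair with identical values.

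By a change of at least 1 on the same scale in leaf, 4 of the 19 were higher and 6 lower under CuO bulk, against 21.3% and 13.6% of all leaf genes and 8.9% and 11.3% of those with the same floors. Under CuSO4, 5 were higher and 4 lower, against 17.5% and 13.4% of all and 7.71% and 11.2% of those with the floors. Under CuO NPs, 0 were higher and 1 was lower, against 0.773% and 1.64% of all and 0.0338% and 0.169% of those with the floors. As shares of the 19 genes these counts are 21.1% and 31.6% under CuO bulk, 26.3% and 21.1% under CuSO4, and 0% and 5.26% under CuO NPs, where 1 gene is 5.26%. The pair with identical values counts as 2 of the lower genes under CuO bulk and as 2 under CuSO4.

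Cp4.1LG17g05590 had the largest increase over control leaf under both CuO bulk and CuSO4. It stood at 12.01 FPKM in the control, 15.8 FPKM under CuO NPs, 115 FPKM under CuO bulk and 130 FPKM under CuSO4. The log2 changes were 0.37, 3.16 and 3.33. Its pollen values were 16.0, 14.3, 13.5 and 12.8 FPKM, with the control highest. The CuO bulk and CuSO4 leaf libraries were thus the high ones, and pollen stayed within a ratio of 1.25 between its highest and lowest library.

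Cp4.1LG03g14210 was above control in all treated leaf and pollen libraries. In leaf it stood at 6.65 FPKM in the control, 11.6 FPKM under CuO NPs, 54.0 FPKM under CuO bulk and 21.6 FPKM under CuSO4. In pollen it stood at 119, 158, 315 and 337 FPKM in the same order. The log2 changes against control were 0.72, 2.84 and 1.56 in leaf and 0.41, 1.40 and 1.49 in pollen.

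Cp4.1LG16g07540 was high in 1 leaf library, with 16.4 FPKM in the control, 22.7 FPKM under CuO NPs, 82.8 FPKM under CuO bulk and 25.8 FPKM under CuSO4. The log2 change of 2.27 under CuO bulk lay just short of the threshold. With 0.1 in place of 1 added to FPKM it was 2.33, which made 3 genes higher under CuO bulk. Of all 20833 leaf genes kept, 1665 were then higher, in place of 951. In pollen Cp4.1LG16g07540 stood at 26.5, 26.1, 43.0 and 61.8 FPKM. The highest pollen value was thus under CuSO4 and the highest leaf value under CuO bulk. Cp4.1LG12g02160 was the second highest gene by change under CuSO4 in leaf, at 146 FPKM against 43.3 FPKM in the control, a log2 change of 1.72.

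The lower genes in leaf were led by Cp4.1LG06g05710, which was listed at 0 in all root libraries. It stood at 143 FPKM in control leaf, 146 FPKM under CuO NPs, 7.59 FPKM under CuO bulk and 32.3 FPKM under CuSO4. The log2 changes were 0.03, -4.06 and -2.11. In pollen it stood at 11.9, 11.9, 13.9 and 15.5 FPKM. Its leaf level was above that of pollen in 3 treatments and below it under CuO bulk, and the leaf and pollen difference missed the threshold (limma adjusted p = 0.0731).

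The pair Cp4.1LG00g03540 and Cp4.1LG07g04740 stood at 33.8 FPKM in control leaf, 43.2 FPKM under CuO NPs, 5.10 FPKM under CuO bulk and 12.3 FPKM under CuSO4. The change under CuO bulk was -2.51 on the log2 scale, and -1.94 with 5 in place of 1 added to FPKM, which is short of the threshold. Cp4.1LG03g11960 was lower than control leaf under all 3 materials, with changes of -1.29 under CuO NPs, -2.11 under CuO bulk and -2.04 under CuSO4. It was the gene with the largest decrease under CuO NPs, followed by Cp4.1LG13g04310 at -0.31. The largest increases under CuO NPs were those of Cp4.1LG03g14210 at 0.72 and Cp4.1LG16g07540 at 0.45.

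**Figure D4:**
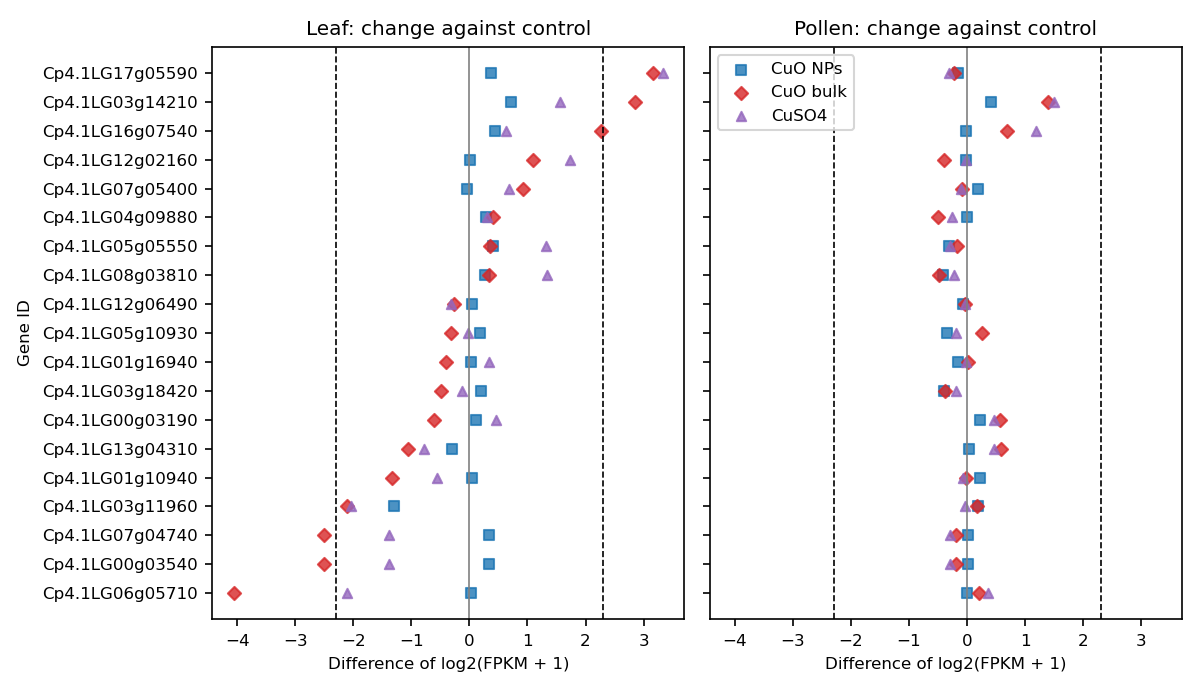
Difference of log2(FPKM + 1) between each copper library and the control library of the same organ for the 19 genes, in leaf (left) and pollen (right), ordered by the change under CuO bulk in leaf. Dashed lines mark 2.3 in either direction, which 5 genes reached under CuO bulk in leaf and none reached in pollen.

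The copper libraries of leaf were also compared with each other, without a control. Under CuO bulk 1 gene was higher and 3 lower by at least 2.3 than under CuO NPs, with 4.34% and 2.84% of all leaf genes kept and 0.677% and 1.66% of those with the same floors. The higher gene was Cp4.1LG17g05590 with a log2 difference of 2.79. The lower ones were Cp4.1LG06g05710 with -4.10 and the identical pair with -2.86. Under CuSO4, Cp4.1LG17g05590 was higher than under CuO NPs by 2.97 and no gene was lower, with 2.45% and 2.52% of all leaf genes and 0.474% and 1.29% of those with the floors. Between CuSO4 and CuO bulk 0 of the 19 differed by 2.3, with 0.346% of all leaf genes higher and 0.773% lower, and 0.0338% and 0.203% of those with the floors.

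In pollen, 0 of the 19 genes were higher or lower by at least 2.3 than control under any of the 3 materials. Of 11185 pollen genes kept, 0.25% were higher and 0.0894% lower under CuO NPs, 1.45% and 0.152% under CuO bulk, and 1.95% and 0.0805% under CuSO4. Among the 2956 genes with the same floors, 0.0677%, 0.237% and 0.338% were higher under CuO NPs, CuO bulk and CuSO4, and 0% lower under each. By at least 1, 0 of the 19 were higher under CuO NPs, 1 under CuO bulk and 2 under CuSO4, and 0 were lower. The shares of all pollen genes were 2.59% higher and 0.438% lower under CuO NPs, 7.38% and 1.15% under CuO bulk, and 8.57% and 0.635% under CuSO4. With the same floors they were 0.237% and 0%, 1.83% and 0.0338%, and 2% and 0%. Cp4.1LG03g14210 and Cp4.1LG16g07540 had the largest increases under CuO bulk and under CuSO4. Their changes were 1.40 and 0.68 under CuO bulk and 1.49 and 1.19 under CuSO4. Under CuO NPs the largest increases were those of Cp4.1LG03g14210 at 0.41 and Cp4.1LG00g03190 at 0.22.

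All 3 copper libraries lay on opposite sides of control in leaf and in pollen for 6 of the 19 genes (31.6%), beside 13.8% of genes averaging 1 FPKM or more in both organs and 14% of the 2956. The 3 changes of an organ share the same control library, so they are not separate checks, and the pattern was not tested. Changes close to 0 count in this pattern, and after the median shift or quantile normalization 5 of the 6 kept it, all but Cp4.1LG13g04310.

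Decreases in pollen were small. The largest under CuO bulk was that of Cp4.1LG04g09880, from 39.7 to 27.8 FPKM, a log2 change of -0.50, followed by Cp4.1LG08g03810 at -0.48. Under CuO NPs they were those of Cp4.1LG08g03810 at -0.41 and Cp4.1LG03g18420 at -0.40. Under CuSO4, Cp4.1LG17g05590 and Cp4.1LG00g03540 were lower by at most 0.31 (-0.31 and -0.30).

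Leaf libraries varied more than pollen libraries for most of these genes. The ratio of the highest to the lowest library had a median of 2.55 in leaf and 1.31 in pollen, and it was at least 4 for 7 of the 19 genes in leaf and for 0 in pollen. The pair with identical values counts as 2 of these 7. The SD of log2(FPKM + 1) over the 4 libraries was larger in leaf for 17 of 19 genes (89.5%), and for 82.6% of the 2956 genes with the same floors. Among those 2956 genes the median ratios were 1.75 and 1.28, and 7.31% reached 4 in leaf and 0.406% in pollen. The steadiest gene was Cp4.1LG12g06490 in pollen, whose highest value was 1.05 times its lowest.

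Effects common to leaf and pollen were fitted with limma on the 8 libraries, with organ as a block, over 9776 genes that averaged 1 FPKM or more in each organ. The error of this fit is the difference of effects between the organs, and the 3 materials share the control libraries. At an adjusted p under 0.05, 0 of the 19 genes were called for any material, and 0% of all genes. At an unadjusted p under 0.05 there were 2 of the 19 under CuO bulk (5.37% of all genes), 1 under CuSO4 (4.27%) and 0 under CuO NPs (0.184%). Among the 2956 genes with the same floors these shares were 2.6%, 1.66% and 0%. Cp4.1LG03g14210 had the lowest p among the 19 under each material. Its change over both organs was 2.12 (SE 0.42, limma adjusted p = 0.673) under CuO bulk, and it was above control in both organs. Under CuSO4 it was 1.53 (SE 0.42, limma adjusted p = 0.833), and under CuO NPs 0.56 (SE 0.42), with an adjusted p of 1. Cp4.1LG16g07540 was the other gene under CuO bulk, with a change of 1.48 (SE 0.52, limma adjusted p = 0.729). Among decreases, the pair with identical values had the lowest p under CuO bulk, at -1.35 (SE 0.65, limma adjusted p = 0.729). Under CuSO4, Cp4.1LG03g11960 led at -1.04 (SE 0.58, limma adjusted p = 0.833), followed by that pair at -0.85. Under CuO NPs they were Cp4.1LG03g11960 at -0.55 and Cp4.1LG03g18420 at -0.10.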

How the data were processed

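Messenger RNA of root, leaf and pollen was sequenced as single reads of 75 bp, per the series design text. FPKM values per gene and library were computed and normalized by the authors, and the deposited table holds no read counts. Reads were aligned with STAR, per the same text, and cutadapt and StringTie appear in the submitters' processing notes, with versions not given in the sources. The design text states 3 biological replicates per treatment, while the labels hold 1 library per combination of organ and treatment, 12 in all, and whether RNA was pooled is not given.

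Differences were taken on the log2(FPKM + 1) scale, where changes of low genes are understated. Organs were compared with limma 3.58.1 (R 4.3.3, empirical Bayes with a trend) on the leaf and pollen libraries, for genes averaging 1 FPKM or more in either, with Benjamini-Hochberg adjustment over all genes tested. Root was left out of that fit because the rule holds these genes near 0 there. Treatments within an organ were described by size. Python 3.11.15 and pandas 2.3.3 were used. Both fits were also run on simulated data, and the shares of changes recovered are not given here. The relative depth of libraries was read from ratios of low values, which gather at those of small whole numbers.

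The members, tests and thresholds were chosen with earlier results of these data known. Genes named were the 2 of highest level, the 2 leading per direction and comparison, and the 2 nearest each side of each limit. Of the RefSeq gene table, 0 entries matched the gene IDs, so lists of genes by function could not be applied. Alternatives were other values added before the log, filters, scalings, blocks, left-out treatments and limits of the rule.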

Additional observations from a re-analysis of the deposited data

Results flagged for a closer look

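Under CuO bulk, Cp4.1LG12g02160 stood at 10.4 FPKM in pollen, apart from 13.9 to 14.1 FPKM in the other 3 pollen libraries. It was the 1 such case among 38 sets of 4 libraries examined, of which chance gives about 1.9.

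For 6 of the 19 genes, beside 14% of the 2956 with the same floors, all 3 copper libraries lay on opposite sides of control in leaf and in pollen. The difference between the organs was not tested, since each has 1 library per treatment and all 3 changes share 1 control library. The mean log2 change over the 3 materials, leaf minus pollen, was 2.51 for Cp4.1LG17g05590, 1.09 for Cp4.1LG12g02160, 1.02 for Cp4.1LG08g03810, 0.95 for Cp4.1LG05g05550 and 0.59 for Cp4.1LG04g09880, all above control in leaf and below it in pollen. It was -1.08 for Cp4.1LG13g04310, which was below control in leaf and above it in pollen as deposited. Its pollen change under CuO NPs was 0.03 and became -0.14 after the median shift and -0.13 after quantile normalization, which ends the pattern. Some other changes were also near 0, such as 0.01 for Cp4.1LG12g02160 in leaf and -0.007 for Cp4.1LG04g09880 in pollen, both under CuO NPs.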

How the results depend on the processing

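The rule gave 27 genes with a floor of 3 FPKM in leaf and pollen, 7 with 10 FPKM, 7 with a root limit of 0.5 FPKM and 36 with 2 FPKM. Applied to the mean of the 4 libraries of an organ it gave 62, and after quantile normalization 60, of which 11 were among the 19. Leaving out 1 treatment gave 7 genes higher in pollen each time and 4 to 7 higher in leaf, with 7 without CuO bulk, the identical pair among them. The pollen minus leaf difference changed sign, in each case for a gene not called as deposited, as follows. Under the median shift it became 0.96 for Cp4.1LG00g03190 and 0.31 for the pair Cp4.1LG00g03540 and Cp4.1LG07g04740, and under quantile normalization 0.72 and 0.76 for these, and -0.15 for Cp4.1LG01g16940. Leaving out 1 treatment, it ranged from -0.011 to 0.25 for Cp4.1LG01g16940 and from -0.091 to 0.46 for Cp4.1LG13g04310, lowest without CuO bulk, and from -0.025 to 0.69 for Cp4.1LG16g07540, lowest without CuSO4. Among genes called as deposited, Cp4.1LG05g10930 kept its sign and lost its call under both scalings. Its difference went from -2.06 to -0.93 under the median shift and to -0.60 under quantile normalization. The causes were not tested. At threshold 1 in place of 2.3, leaf had 4 higher and 6 lower genes under CuO bulk, 5 and 4 under CuSO4, and 1 lower under CuO NPs. In pollen 1 was higher under CuO bulk and 2 under CuSO4. With 0.1 added to FPKM, 3 genes were higher under CuO bulk in leaf, and with 5 added 1 was lower. Of all 20833 leaf genes kept, 1665 were higher with 0.1 added, in place of 951. With 5 added 339 of them were lower, in place of 735. The pattern of opposite sides in leaf and pollen, examined under other settings chosen after seeing the data, held for 5 or 6 genes. The fit over both organs called 0 of the 19 under every alternative run. Without treatment as a block, which pairs the leaf and pollen libraries of a treatment, 7 genes were higher in pollen and 4 in leaf, as with it. Single libraries and the unknown number of reads behind each value limit the treatment comparisons.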
